A study of Danio rerio with 6 samples.

Results

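Neuronal differentiation factors are the proteins that turn a dividing neural progenitor into a neuron and then hold it in that state. Those described here are 10 genes of the zebrafish (Danio rerio), taken by their symbols from the 32057 genes of the deposited table: the RNA-binding protein genes elavl3 and elavl4, the NeuroD genes neurod2, neurod4, neurod6a and neurod6b, the zinc finger genes insm1a and insm1b, and the T-box genes tbr1b and eomesa. All 10 were found, and all 10 lay above the level required for testing (a mean of at least 1 FPKM, fragments scaled to the length of the gene and to the size of the library). The treated embryos were kept in 500 µg/L 6PPD, a tire rubber antioxidant, from 10 hours post-fertilization (hpf) to 2 days post-fertilization (dpf), and the control embryos in the solvent DMSO over the same time. Every library, 3 for 6PPD and 3 for DMSO, was made from poly(A) RNA of 150 pooled heads at 2 dpf, and all embryos of both groups also had the pigment blocker PTU (0.003%) from 24 hpf. The labels give no strain and no DMSO concentration, and do not say whether the replicates came from separate clutches, so p-values measure the spread between these pools.

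Neurons arise in steps. Proneural basic helix-loop-helix (bHLH) factors start the program in a progenitor, Insm1 acts around the time the cell leaves the cycle, NeuroD factors drive differentiation, and T-box factors such as Tbr1 and Eomes mark particular lineages, in mouse above all glutamatergic neurons of the cortex. ELAV proteins of the Hu family bind AU-rich elements in messenger RNA, stabilise and splice neuronal transcripts, and are among the first proteins made by a newborn neuron. In zebrafish elavl3, also called HuC, is the usual marker and transgene driver for neurons of the whole nervous system.

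The tissue is labelled brain, and the libraries carried neuron markers together with those of other head tissues. The axon growth gene gap43 averaged 121 FPKM in 6PPD heads and 114 FPKM in DMSO heads, and the forebrain gene foxg1a ranged from 25.3 to 28.2 FPKM in 6PPD heads and from 26.5 to 29.0 FPKM in DMSO heads. Some other neural genes differed more, in either direction. The synaptic gene snap25a averaged 89.9 FPKM in 6PPD heads and 67.8 FPKM in DMSO heads, and the forebrain gene foxg1b 39.6 and 52.5 FPKM. The skin keratin gene krt4 averaged 2000 FPKM in 6PPD heads and 2900 FPKM in DMSO heads, and the rod opsin gene rho 32.2 and 66.8 FPKM. None of 18 trunk Hox genes of groups 9 to 13 reached a mean of 1 FPKM, and hoxa9a and hoxd13a were listed at 0 in every library. Depth per library was not established, because the table holds FPKM only and low values were whole multiples of the commonest low step in 23.4% to 25.7% of cases (within 0.1 step, where an arbitrary step gives 20%). DMSO replicate 3 lay apart from the other controls, at -4.7 on the first principal component against -20.6 and -22.8, with the 6PPD libraries at 15.3 to 16.9. Counts of calls that change without it are given both ways. In bulk RNA, fewer cells of a type and less RNA per cell cannot be told apart.

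Of the 10 genes, 1 was called, elavl3, which rose in 6PPD heads. The measured differences of the other 9 did not pass the threshold, and the direction was positive for 5 genes and negative for 5. Expression was compared with limma on log2(FPKM + 1) over 15320 genes, with a Benjamini-Hochberg adjusted p under 0.05 as the threshold. Over all genes tested 3.41% were called, 2.26% as higher and 1.15% as lower in 6PPD, and a single call among 10 genes is too few to set the group apart from that background. The median log2 fold change was 0 for the 10 genes and 0.06 for all genes tested. The groups did not overlap in 4 of the 10 genes, higher in 6PPD for elavl3, insm1a and insm1b and lower for tbr1b, and in 26.3% of all genes tested.

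**Figure D1:**
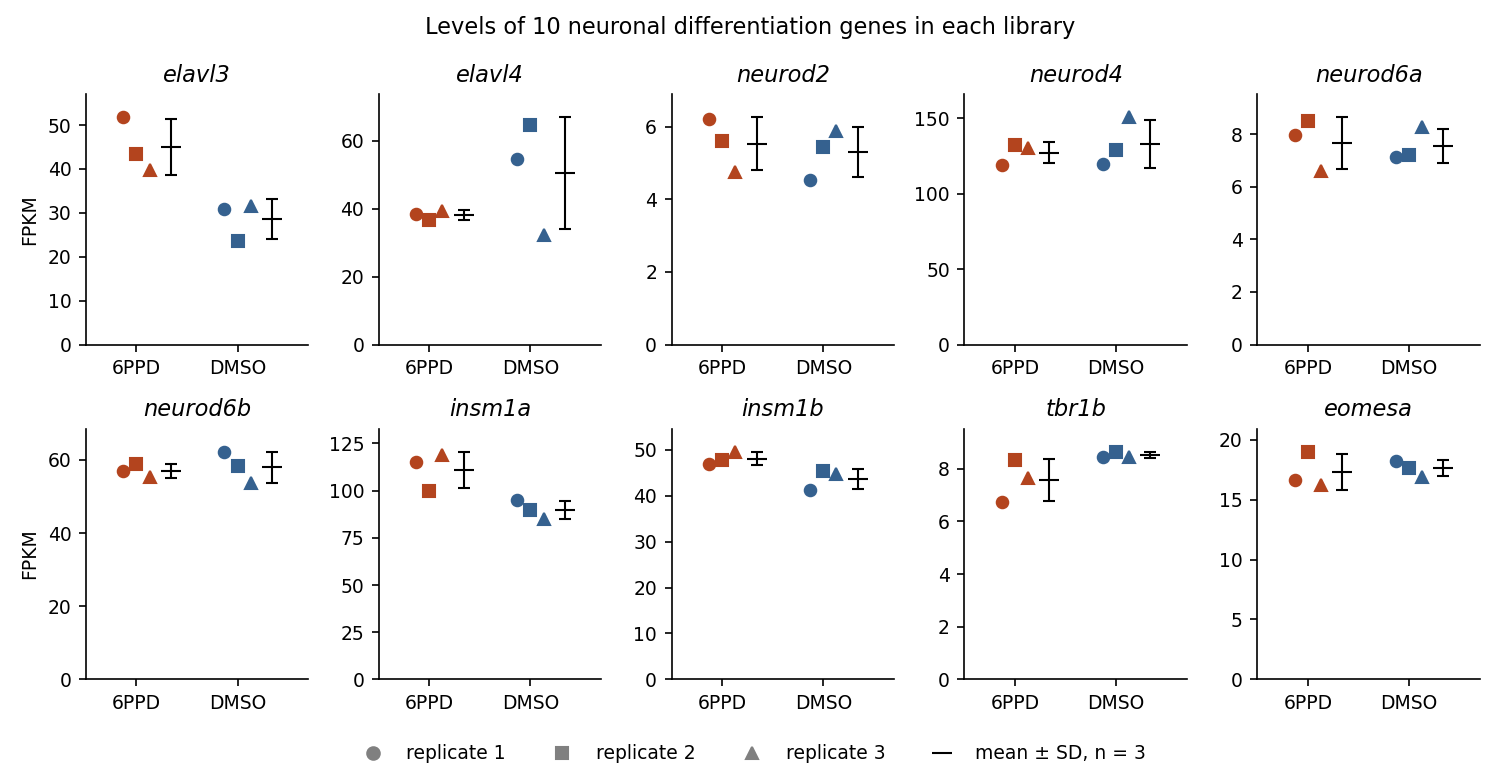
FPKM (vertical axes, from 0) of the 10 genes in the 3 libraries of 6PPD (left in each panel) and of DMSO (right), with the mean and SD beside the points. The 6PPD points of elavl3 (39.7 to 51.9 FPKM) all lie above the DMSO points (23.5 to 31.5 FPKM), and the DMSO points of elavl4 spread from 32.4 to 64.6 FPKM.

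The ELAV gene elavl3 (ENSDARG00000014420, chromosome 3, 46800190 to 46818001 on GRCz11, minus strand) had 51.9, 43.4 and 39.7 FPKM in 6PPD replicates 1 to 3, against 30.9, 23.5 and 31.5 FPKM in DMSO replicates 1 to 3. Every 6PPD library was above every DMSO library, and the gap between the nearest libraries of the groups was that between 6PPD replicate 3 and DMSO replicate 3. The means were 45 ± 6.29 FPKM in 6PPD heads and 28.6 ± 4.45 FPKM in DMSO heads (SD, n = 3 each), a ratio of 1.57. The log2 fold change was 0.64 ± 0.13 (SE, 95% interval 0.34 to 0.93), with a limma adjusted p of 0.0324, and 97.4% of all genes tested had a smaller absolute change. The log2 fold change stayed between 0.51 and 0.72 when any 1 library was left out, but the call was lost in 4 of these 6 fits. The limma adjusted p was 0.12 without 6PPD replicate 1, 0.0918 without 6PPD replicate 2, 0.0563 without 6PPD replicate 3 and 0.0995 without DMSO replicate 2.

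The other neuronal ELAV gene, elavl4 (ENSDARG00000045639, chromosome 8, 16004154 to 16117112, plus strand), encodes HuD, which in mammals promotes axon and dendrite growth. It had 38.5, 36.6 and 39.3 FPKM in 6PPD replicates 1 to 3, against 54.8, 64.6 and 32.4 FPKM in DMSO replicates 1 to 3. The 6PPD libraries were close together and below DMSO replicates 1 and 2, while DMSO replicate 3 was the lowest of all 6 libraries. The means were 38.1 ± 1.39 FPKM in 6PPD heads and 50.6 ± 16.5 FPKM in DMSO heads, and the log2 fold change of -0.34 ± 0.20 (95% interval -0.80 to 0.11) was not called (limma adjusted p = 0.37). Without DMSO replicate 3 it was called lower in 6PPD heads at -0.63 on the log2 scale (limma adjusted p = 0.0154). Leaving out DMSO replicate 2 instead gave -0.14 (limma adjusted p = 0.765). The size and the call of elavl4 thus rest on single control libraries. On the log2 scale elavl4 in DMSO replicate 3 lay at -0.86 from the mean of the other controls, and 98.9% of all genes tested were nearer to theirs. Genes of 4 to 8 kb, the length class of elavl4 (7728 bases) and elavl3 (4629 bases), had a median of 0.15 for the same difference, and elavl3 had 0.22. An antisense gene, CR931780.1, overlaps elavl4 and averaged 0.0981 FPKM in 6PPD heads and 0.0676 FPKM in DMSO heads. The libraries mark strand by a U-labelled second strand, but the sources used here do not say if the counting used it.

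The order of the ELAV genes differed between the groups in these libraries, but the test of their ratio did not pass. By FPKM, elavl3 was above elavl4 in every 6PPD library, with ratios of 1.35, 1.19 and 1.01 in replicates 1 to 3. It was below elavl4 in every DMSO library, with ratios of 0.564, 0.364 and 0.971. Which of the genes comes first depends on the gene lengths used, while the difference in log2 ratio between the groups does not. The mean log2 ratio was 0.23 ± 0.21 in 6PPD heads and -0.78 ± 0.71 in DMSO heads (SD, n = 3 each), a difference of 1.01. The groups did not overlap, with 6PPD replicate 3 and DMSO replicate 3 next to each other. The exact two-sided permutation test gave p = 0.1, the smallest that 3 libraries against 3 allow, over 5 ratios tested, with a Benjamini-Hochberg adjusted p of 0.333. Left-out libraries moved the difference between 0.67 (without DMSO replicate 2) and 1.37 (without DMSO replicate 3). The summed level of both genes ranged from 78.9 to 90.4 FPKM in 6PPD heads and from 63.9 to 88.1 FPKM in DMSO heads, and these ranges overlapped. Of the other Hu genes, elavl2 lay below the level tested, at 0.175 and 0.122 FPKM in 6PPD and DMSO heads. The ubiquitous relative elavl1a measured 126 ± 3.52 FPKM in 6PPD heads and 116 ± 4.11 FPKM in DMSO heads (log2 fold change 0.12, limma adjusted p = 0.4).

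**Figure D2:**
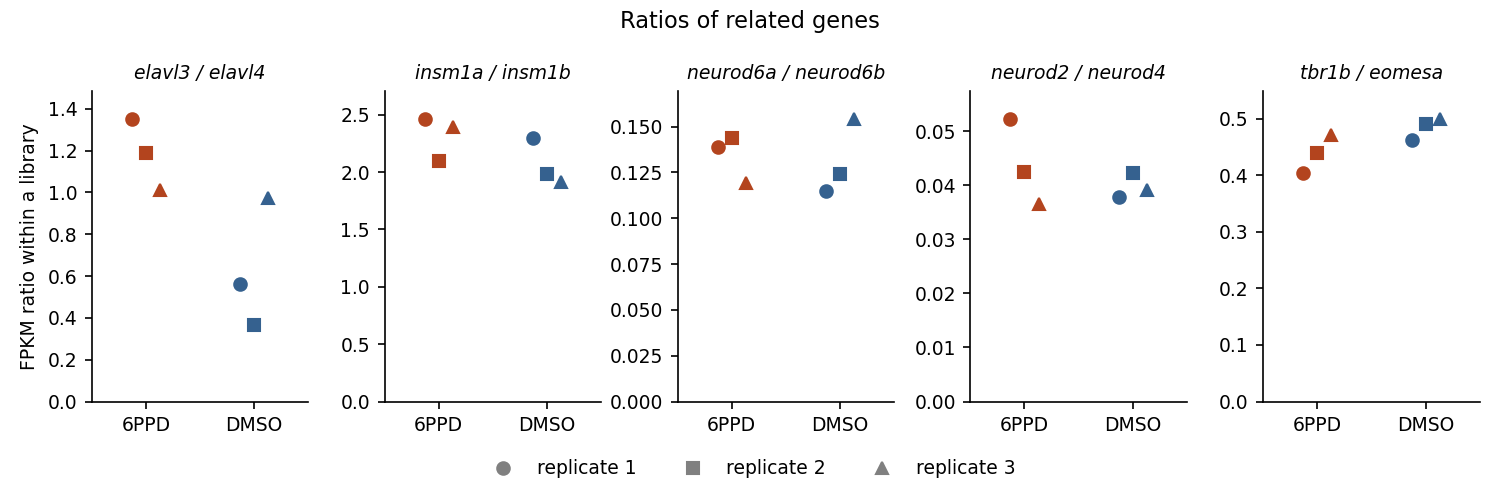
Ratio of the FPKM of related genes within each library (vertical axes, from 0), with 6PPD left of DMSO and 1 marker shape per replicate. The ratio of elavl3 to elavl4 is 1.01 or more in the 6PPD libraries and 0.971 or less in the DMSO libraries, and the other 4 ratios overlap between the groups.

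Among the NeuroD genes, no member was called, and all 4 had ranges that overlapped between the groups. The most abundant of the 10 genes in every library was neurod4 (ENSDARG00000003469, chromosome 23, 28343988 to 28347039, minus strand), known in mouse for retinal and hindbrain neurons. It had 119, 132 and 130 FPKM in 6PPD replicates 1 to 3, against 120, 129 and 151 FPKM in DMSO replicates 1 to 3. Only DMSO replicate 3 stood above the rest, and the log2 fold change was -0.06 (95% interval -0.28 to 0.16, limma adjusted p = 0.742). The gene neurod6b (ENSDARG00000020794, chromosome 2, 50608099 to 50629155, plus strand), whose mouse counterpart Neurod6 marks cortical pyramidal neurons, had 57.0, 58.9 and 55.2 FPKM in 6PPD heads, against 62.2, 58.2 and 53.7 FPKM in DMSO heads. Its log2 fold change of -0.02 (95% interval -0.20 to 0.16) was not called (limma adjusted p = 0.895), and the DMSO libraries enclosed all 6PPD libraries.

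The duplicate neurod6a (ENSDARG00000040008, chromosome 24, 32411753 to 32474949, plus strand) was much less abundant, with 7.95, 8.49 and 6.58 FPKM in 6PPD heads, against 7.14, 7.20 and 8.28 FPKM in DMSO heads. The groups interleaved (log2 fold change 0.02, 95% interval -0.25 to 0.28, limma adjusted p = 0.943). The ratio of neurod6a to neurod6b was 0.119 to 0.144 in 6PPD heads and 0.115 to 0.154 in DMSO heads (exact permutation p = 0.9, adjusted over the 5 ratios 0.9). An itprid1 gene on the other strand overlaps neurod6a and averaged 0.418 FPKM in 6PPD heads and 0.371 FPKM in DMSO heads. The lowest of the 10 genes in every library was neurod2 (ENSDARG00000016854, chromosome 12, 14920088 to 14922955, minus strand), which in mouse supports cortical and cerebellar granule neurons. It had 6.22, 5.61 and 4.75 FPKM in 6PPD heads, against 4.54, 5.45 and 5.89 FPKM in DMSO heads, and each group covered most of the range of the other (log2 fold change 0.05, 95% interval -0.24 to 0.35, limma adjusted p = 0.85). The ratio of neurod2 to neurod4 was 0.0366 to 0.0522 in 6PPD heads and 0.0378 to 0.0423 in DMSO heads (exact permutation p = 0.6, adjusted over the 5 ratios 0.75). The remaining family gene neurod1, a driver of photoreceptor, inner ear and endocrine differentiation, was more abundant than any of the 10 genes in both groups by mean, at 155 ± 4.50 FPKM in 6PPD heads and 158 ± 17.1 FPKM in DMSO heads (limma adjusted p = 0.925).

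The Insm1 zinc finger proteins are transcriptional repressors of differentiating neuronal and endocrine cells, and zebrafish insm1a is needed for photoreceptor differentiation. Both Insm1 genes were higher in every 6PPD library than in any DMSO library, and neither was called. Of all genes tested, 26.3% had groups that did not overlap, in either direction. The gene insm1a (ENSDARG00000091756, chromosome 20, 48482925 to 48485354, minus strand) had 115, 100 and 119 FPKM in 6PPD replicates 1 to 3, against 94.8, 89.8 and 85.2 FPKM in DMSO replicates 1 to 3. The means were 111 ± 9.69 FPKM in 6PPD heads and 89.9 ± 4.76 FPKM in DMSO heads (SD, n = 3 each), and 6PPD replicate 2 came closest to the controls. Its log2 fold change was 0.30 ± 0.09 (SE, 95% interval 0.10 to 0.50), with a limma adjusted p of 0.1. Over the 18 other settings of the fit it stayed between 0.24 and 0.38, with adjusted p between 0.0544 and 0.303, so it was called in 0 of them.

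Its duplicate insm1b (ENSDARG00000053301, chromosome 17, 41463942 to 41466145, plus strand) had 46.9, 47.8 and 49.6 FPKM in 6PPD heads, against 41.2, 45.3 and 44.7 FPKM in DMSO heads. The lowest 6PPD value was 46.9 FPKM and the highest DMSO value 45.3 FPKM. This gap between the groups was smaller than the distance from lowest to highest value within either group. The log2 fold change was 0.13 ± 0.08 (95% interval -0.03 to 0.30, limma adjusted p = 0.343). The ratio of insm1a to insm1b was 2.46, 2.10 and 2.39 in 6PPD heads, against 2.30, 1.98 and 1.91 in DMSO heads, with overlap through DMSO replicate 1 (exact permutation p = 0.2, adjusted over the 5 ratios 0.333). In the deposited annotation the span of each Insm1 gene on the chromosome equals its gene length, 2430 and 2204 bases for insm1a and insm1b, so both are annotated without introns, while the other 8 genes span 1085 to 105231 bases more than their gene length.

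The T-box genes were at or slightly under the control level. The gene tbr1b (ENSDARG00000004712, chromosome 9, 51427826 to 51436377, minus strand), whose mouse counterpart specifies deep-layer cortical neurons, had 6.73, 8.35 and 7.63 FPKM in 6PPD heads, against 8.45, 8.65 and 8.44 FPKM in DMSO heads. All 6PPD libraries were lower, replicate 2 by a small margin, and the control libraries were the tightest of any of the 10 genes (coefficient of variation 1.41%, against 10.8% in 6PPD heads). The log2 fold change was -0.16 ± 0.10 (95% interval -0.39 to 0.08), with a limma adjusted p of 0.43. With 1 library left out it ranged from -0.22 to -0.08, the smallest change being without 6PPD replicate 1. The gene eomesa (ENSDARG00000006640, chromosome 19, 860830 to 874888, minus strand), the Tbr2 relative that in mouse marks intermediate progenitors of the cortex, had 16.6, 19.0 and 16.2 FPKM in 6PPD heads, against 18.2, 17.6 and 16.9 FPKM in DMSO heads. The 6PPD libraries lay on both sides of the controls (log2 fold change -0.03, 95% interval -0.23 to 0.17, limma adjusted p = 0.886). The ratio of tbr1b to eomesa was 0.404 to 0.472 in 6PPD heads and 0.463 to 0.499 in DMSO heads (exact permutation p = 0.2, adjusted over the 5 ratios 0.333). Eomes also acts in mammalian lymphocytes. Of 10 lymphocyte genes matched, 8 lay below the level tested. Of these, lck, rag1 and rag2 were at 0.0657, 0.194 and 0.421 FPKM in 6PPD heads and 0.0769, 0.547 and 0.443 FPKM in DMSO heads. Those tested were tcf7, at 2.08 and 2.63 FPKM in 6PPD and DMSO heads, and ikzf1, at 1.09 and 1.25 FPKM. The list summed to 4.47 to 4.72 FPKM in 6PPD libraries and 5.72 to 6.04 FPKM in DMSO libraries. Whether lymphocytes contributed to the level of eomesa was not tested.

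**Figure D3:**
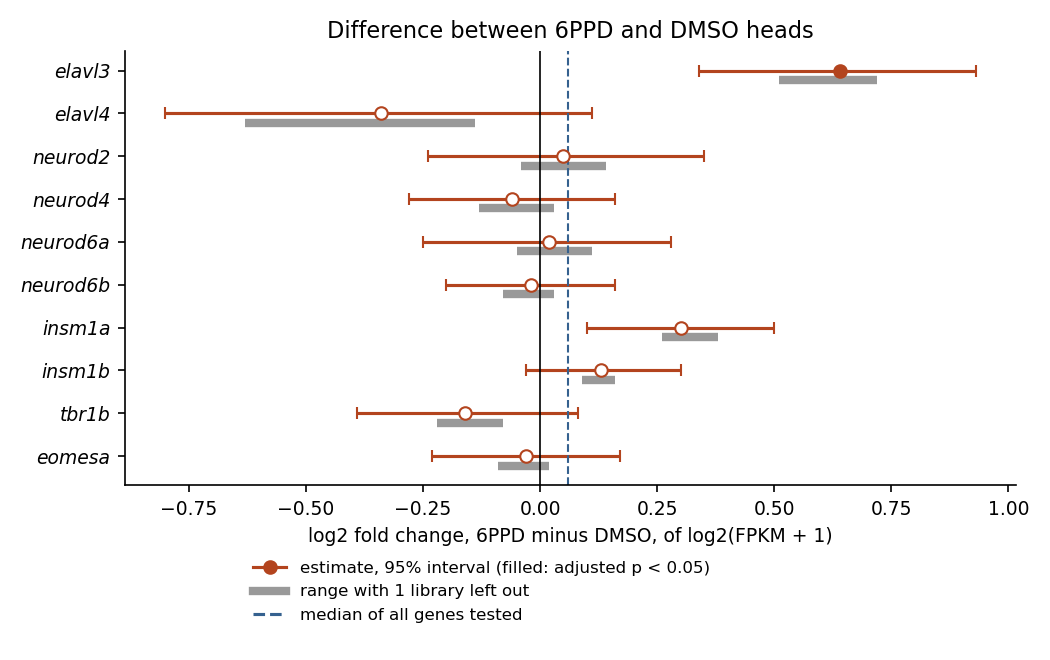
Log2 fold change of each gene (6PPD minus DMSO, horizontal axis) with its 95% interval, and as grey bars the range when 1 library is left out. The estimate is 0.64 for elavl3 and lies between -0.34 and 0.30 for the other 9 genes, and the dashed line marks the median of all genes tested, 0.06.

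The 10 genes differed more in level than between the groups. FPKM is scaled to a single gene length for each gene, so the order of the genes depends on those lengths. Mean FPKM ran in 6PPD heads from neurod4 (127), insm1a (111), neurod6b (57.0), insm1b (48.1), elavl3 (45), elavl4 (38.1), eomesa (17.3), neurod6a (7.67) and tbr1b (7.57) to neurod2 (5.53). Neighbours with overlapping ranges in 6PPD heads were insm1b and elavl3, and neurod6a and tbr1b. In DMSO heads the order was neurod4 (133), insm1a (89.9), neurod6b (58.0), elavl4 (50.6), insm1b (43.7), elavl3 (28.6), eomesa (17.6), tbr1b (8.52), neurod6a (7.54) and neurod2 (5.29), and elavl4 overlapped both neurod6b and insm1b. The genes neurod4, insm1a, eomesa and neurod2 held places 1, 2, 7 and 10 in all 6 libraries. By mean level elavl4 held place 6 in 6PPD heads and place 4 in DMSO heads, while elavl3, insm1b, neurod6a and tbr1b differed by 1 place between the groups.

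For each gene the most correlated genes across the 6 libraries were picked, which is a description of 6 points that share the group difference and the library scaling. They are the highest values of a search over the tested genes with a gene symbol. With 6 points such a search gives a high r for almost any gene, so the closeness is no result. The genes most like elavl3 by Pearson correlation of log2(FPKM + 1) were dnajb1a, an Hsp40 co-chaperone gene of the heat shock response (r = 0.9965), and ercc6l2 (r = 0.9949). Of these dnajb1a was called higher in 6PPD heads (7.88 FPKM against 4.55 FPKM in DMSO heads, log2 fold change 0.69, limma adjusted p = 0.042). The creatine kinase gene ckbb was most like elavl4 (r = 0.9927) with a log2 fold change of -0.09, and pacsin2 most like insm1a (r = 0.9959) with 0.47 (limma adjusted p = 0.632 and 0.0903). For 6 other genes the highest correlations were 0.9873 to 0.997, with six1a for neurod2, WSCD1 for neurod4, wdr13 for neurod6a, trappc4 for neurod6b, slc35b2 for insm1b and plaa for tbr1b, and none of these 6 was called.

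Genes around the 10 in the neuronal program were mostly not called, as holds for all genes tested, of which 3.41% were called. Of 18 other neural bHLH genes tested, 0 were called by limma and 3 were higher and 2 lower at an unadjusted p under 0.05. Over all genes tested 20.3% had an unadjusted limma p under 0.05, in either direction. The E protein gene tcf3b, a partner of proneural factors, was at 0.34 on the log2 fold change scale (adjusted p = 0.0663 in limma), and ptf1a, which directs inhibitory neurons of retina and cerebellum, had -0.31 (limma adjusted p = 0.17). The list had a median of 0.02. Of 23 Notch ligand and cell cycle exit genes, 1 fell, the antiproliferative gene btg2, with 38.7 ± 2.10 FPKM in 6PPD heads and 50.1 ± 2.17 FPKM in DMSO heads (log2 fold change -0.36, limma adjusted p = 0.0384). The median of that list was 0.09, and 18 of the 23 were positive, against 61.5% of all genes tested. By an unadjusted limma p under 0.05, 5 were higher and 1, btg2, was lower.

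Pan-neuronal genes had a median log2 fold change of 0.16, against 0.06 over all genes, and 35 of 49 tested were positive, against 61.5% of all genes. At an unadjusted p under 0.05, 16 were higher and 1 lower, against 20.3% of all genes tested in either direction. A single one of the 49 was called, the synaptic membrane fusion gene snap25a, which rose, with 94.7, 91.4 and 83.6 FPKM in 6PPD heads, against 63.6, 68.1 and 71.9 FPKM in DMSO heads (log2 fold change 0.40, limma adjusted p = 0.0328). Its duplicate snap25b had 42 ± 4.85 FPKM in 6PPD heads and 49.3 ± 5.15 FPKM in DMSO heads (log2 fold change -0.23, limma adjusted p = 0.271). The microtubule regulator gene stmn1b had 380 ± 18.9 FPKM in 6PPD heads and 296 ± 10.9 FPKM in DMSO heads (limma adjusted p = 0.0552). Without DMSO replicate 3, 12 of the 49 were called higher and 0 lower by limma. Over all 15320 genes that fit called 807 higher and 327 lower, against 346 and 176 with every library kept. With any 1 of the other 5 libraries left out 0 of the 49 were called in either direction. Among 24 telencephalic and glutamatergic genes tested, foxg1b, a forebrain transcription factor gene, fell, with 39.6 ± 1.67 FPKM in 6PPD heads and 52.5 ± 4.58 FPKM in DMSO heads (log2 fold change -0.39, limma adjusted p = 0.0395), and bcl11ab had 0.36 (limma adjusted p = 0.155, list median 0.05). Of 18 GABAergic genes tested 0 were called by limma, with 1 higher and 1 lower at an unadjusted p under 0.05, sst1.1 at 0.28 and tfap2a at -0.22 (list median 0.02).

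Of 41 neural progenitor genes tested, 2 rose, the cyclin gene ccnd1 (64.2 ± 6.21 FPKM in 6PPD heads and 42.9 ± 1.06 FPKM in DMSO heads, log2 fold change 0.57, limma adjusted p = 0.0102) and hes2.2 (0.40, limma adjusted p = 0.0384), with a list median of 0.10. At an unadjusted p under 0.05, 8 of the 41 were higher and 4 lower, against 20.3% of all genes tested in either direction. The 4 lower genes were gfap (-0.50), fabp7a (-0.33), sox19b (-0.31) and sox19a (-0.26), none of them called. The REST complex represses neuronal genes outside neurons. Of its 9 genes tested, the corepressor gene rcor2 rose, with 62.3 ± 1.88 FPKM in 6PPD heads and 45.5 ± 0.621 FPKM in DMSO heads (log2 fold change 0.44, limma adjusted p = 0.0117). The repressor gene rest itself measured 2.83 ± 0.192 and 2.78 ± 0.343 FPKM in 6PPD and DMSO heads, sin3aa had 0.16 (limma adjusted p = 0.394), and the list median was 0.11. In the family of the 10 genes, 4 further relatives were tested and 0 called by limma (0 at an unadjusted p under 0.05), with tbr1a at 1.29 FPKM in 6PPD heads and 1.53 FPKM in DMSO heads. Without DMSO replicate 3 the calls were 1 higher and 0 lower among the other neural bHLH genes and among the GABAergic genes. They were 1 higher and 1 lower among the Notch ligand and cell cycle exit genes and among the telencephalic and glutamatergic genes. Among the progenitor genes they were 2 higher and 2 lower, and among all 15320 genes 807 higher and 327 lower. The calls in these neuronal lists were seldom kept when 1 library was left out: ccnd1 and rcor2 were called in 3 of the 6 such fits, foxg1b in 2, and btg2, snap25a and hes2.2 in 1.

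**Figure D4:**
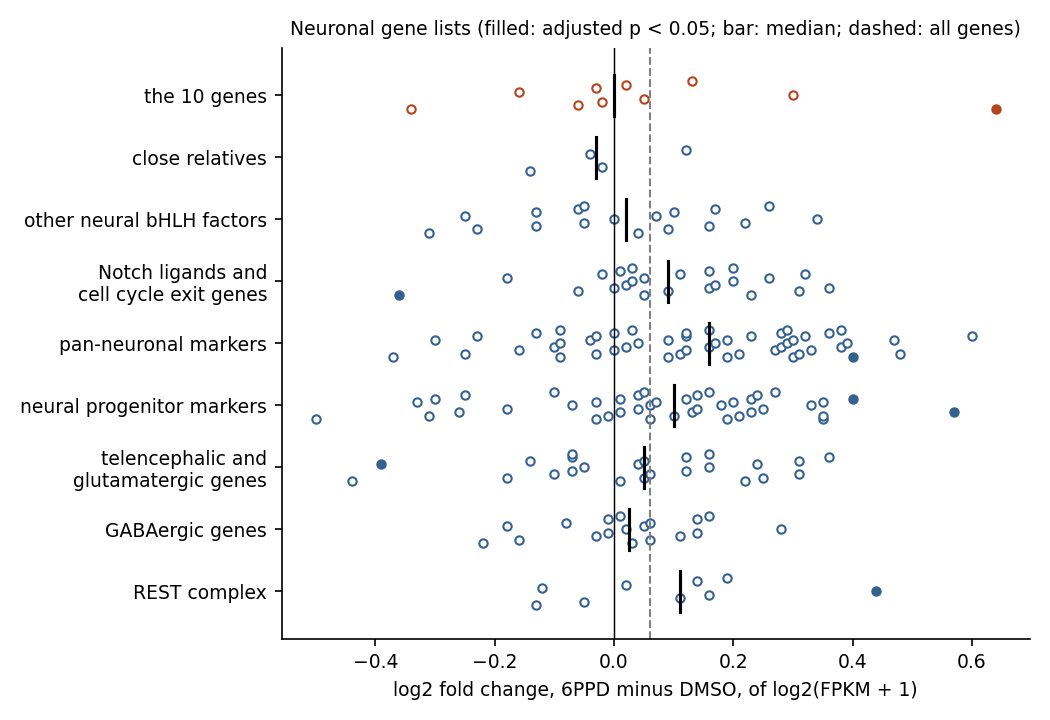
Log2 fold change (horizontal axis, 6PPD minus DMSO) of the 10 genes and of each tested gene of 8 neuronal lists, with filled points for an adjusted p under 0.05, bars for list medians and a dashed line for the median of all genes tested (0.06). List medians lie between -0.03 and 0.16, and that of the 10 genes is 0.

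Some markers of other tissues differed between the groups and many did not, and their part in the results on the 10 genes was not tested. Of 19 photoreceptor and bipolar genes tested, 5 fell in 6PPD heads (rho, arr3a, rcvrn3, opn1sw1 and gnat1, list median -0.37), and the list summed to 538 to 594 FPKM in 6PPD libraries and 574 to 843 FPKM in DMSO libraries. The calls of rho held in 6 of 6 fits with a library left out, those of the other 4 in 2 to 4. With an unadjusted limma p under 0.05, 9 of the 19 were lower and 1 was higher. The higher gene was nr2e3, at 0.38 (limma adjusted p = 0.0847). As background, neurod4 and the Insm1 genes are also expressed in the developing retina. Of 14 retinal ganglion and amacrine genes 1 fell, pou4f3 (-0.69), with lhx1a at 0.31 and a list median of -0.07. In limma 6 of the 14 were lower and 1 higher at an unadjusted p under 0.05, against 20.3% of all genes tested in either direction. The list had sums of 392 to 445 FPKM in 6PPD libraries and 409 to 477 FPKM in DMSO libraries. Of 21 pituitary and endocrine genes 0 were called by limma, with sums of 235 to 241 FPKM in 6PPD libraries and 218 to 248 FPKM in DMSO libraries. In that list 1 was higher (prl at 0.55) and 0 lower at an unadjusted p under 0.05, against 20.3% of all genes tested in either direction. The symbol scg5 stands for 2 rows there, at -0.25 and 1.20 (limma adjusted p = 0.276 and 0.291). Of 7 hair cell and neuromast genes 1 fell, cldnb (-1.14), which is also a skin gene, while s100t was at 0.50. Of the 7, 5 were positive, with a list median of 0.07. At an unadjusted limma p under 0.05, 2 were higher and 1 lower, against 20.3% of all genes tested in either direction. The list, in which cldnb alone averaged 30.6 FPKM in 6PPD heads and 68.9 FPKM in DMSO heads, summed to 61.9 to 79.0 FPKM in 6PPD libraries and 91.5 to 109 FPKM in DMSO libraries. The hair cell genes otofb and myo7aa lay below the level tested in both groups. Of those tested, otofa averaged 1.47 FPKM in 6PPD heads and 1.61 FPKM in DMSO heads, and myo6b 2.66 and 1.75 FPKM (log2 fold change 0.41, limma adjusted p = 0.207).

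Of 20 epidermis genes 2 fell, agr1 (-0.93) and cldne (-0.46). Of the 20, 1 was positive, with a list median of -0.43. The unadjusted limma p was under 0.05 for 13 lower genes and 1 higher gene, against 20.3% of all genes tested in either direction. The list summed to 5800 to 7340 FPKM in 6PPD libraries and 6640 to 11600 FPKM in DMSO libraries. Without DMSO replicate 3, 7 of the 20 were called lower and 0 higher by limma. Over all 15320 genes that fit called 327 lower and 807 higher, against 176 and 346 with every library kept. With any 1 of the other 5 libraries left out 0 of the 20 were called in either direction. Of 18 muscle genes 0 were called by limma, with sums of 394 to 649 FPKM in 6PPD libraries and 552 to 573 FPKM in DMSO libraries. At an unadjusted p under 0.05, 0 were higher and 2 lower (myhz2 at -0.57 and ckma at -0.36), against 20.3% of all genes tested in either direction. Of 11 blood and leukocyte genes apoeb (-0.40) and lyz (-0.82) fell, with sums of 1180 to 1250 FPKM in 6PPD libraries and 1090 to 1410 FPKM in DMSO libraries. Of the 11, 3 were positive, with a list median of -0.20, and 4 were lower and 0 higher at an unadjusted limma p under 0.05. With 1 library left out, agr1, cldne, apoeb and lyz were each called in 1 of 6 fits, pou4f3 in 2 and cldnb in 6. Both tested lymphocyte genes, tcf7 (-0.24) and ikzf1 (-0.11), were not called.

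**Figure D5:**
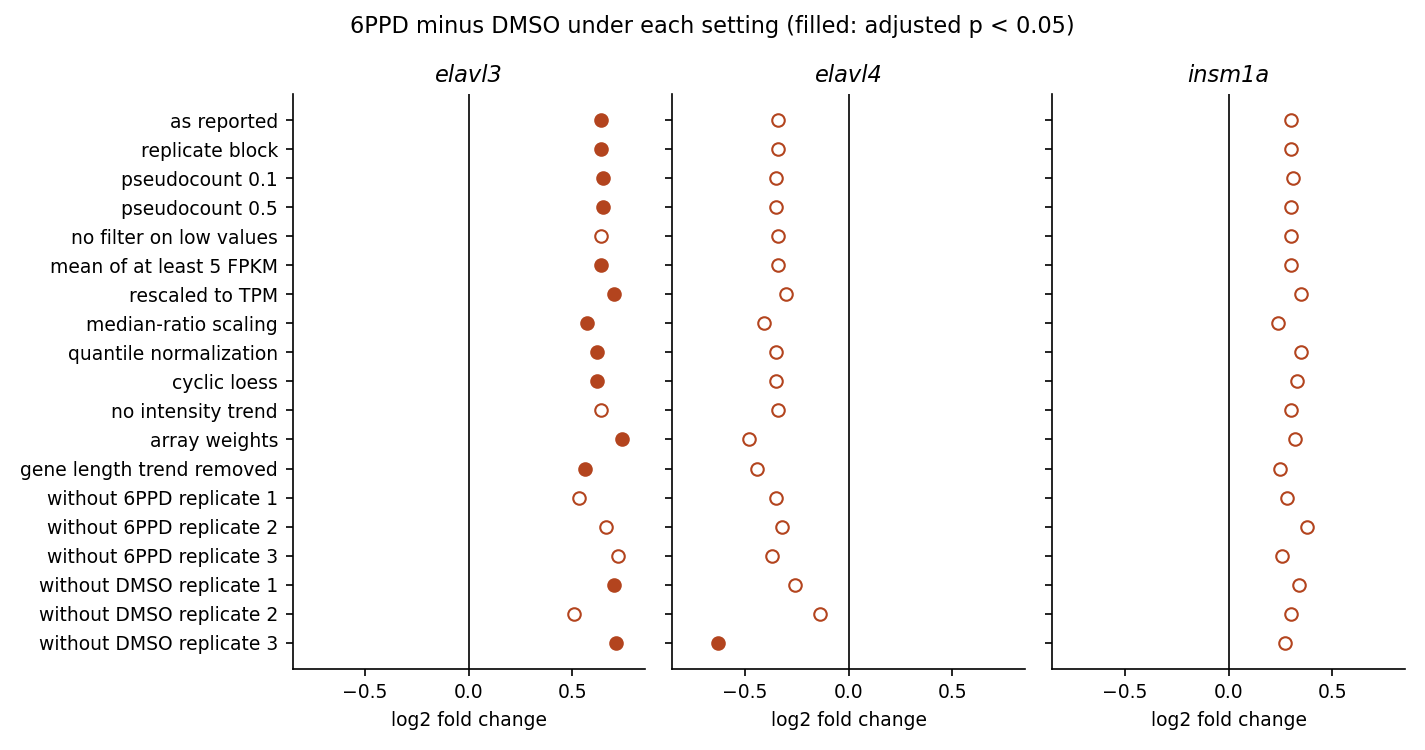
Log2 fold change (horizontal axes, 6PPD minus DMSO) of elavl3, elavl4 and insm1a under each setting of the fit, with filled points for an adjusted p under 0.05. The values of elavl3 stay between 0.51 and 0.74, elavl4 is called in the fit without DMSO replicate 3 (-0.63), and insm1a stays between 0.24 and 0.38 with no filled point.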

How the data were processed

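The authors deposited FPKM per gene for each library, and GRCz11, HISAT2, StringTie, featureCounts and fastp are listed, with no version or role, per the submitters' processing notes. Libraries were made from poly(A) RNA with a U-labelled second strand, per the labels' protocols. Whole fragments could not be recovered, so no count model was used. Genes averaging 1 FPKM or more were tested on log2(FPKM + 1), which understates changes of low genes, with limma 3.58.1 in R 4.3.3 (intensity trend, 6PPD against DMSO, no further term). Symbols, positions and gene lengths, other values of the deposited table, are as the authors give them. Ratios of related genes were tested by exact permutation.

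The members and the 18 other gene lists (378 of 395 distinct list symbols, members included, matched) were chosen with earlier results of these data known. Named are all 10 genes, called genes of each list, the 2 with the smallest p, and the 2 genes most correlated with each member, of which the closest is printed for most. Other genes, such as marker levels, were named after their values were seen. A few symbols stand for 2 rows. One of the lists and a few genes are not reported here. The 18 trunk Hox genes were all below the filter. Alternatives covered pseudocount, filter, scaling, variance model, weights, replicate number as a block, each library left out and, added after seeing the data, a gene length trend. The fit was run on simulated data with known changes, drawn as independent normal values with the fitted variances. That checks the code, and not how well the model suits these libraries.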

Additional observations from a re-analysis of the deposited data

How the results depend on the processing

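Of 18 alternatives, elavl3 was called in 12 (log2 fold change 0.51 to 0.74) and kept its direction in all, as did elavl4, insm1a, insm1b and tbr1b. With no filter on low values 26 genes and 0 of the 10 were called, and without the intensity trend 335 and 0 (elavl3 adjusted p = 0.14 and 0.0677). Array weights gave 985 genes. With 1 library left out, genes called ranged from 170 to 1134 and members called from 0 to 2, and the highest counts were without DMSO replicate 3. The differences of log2 ratios with a library left out ranged from 0.67 to 1.37 (elavl3 to elavl4), 0.11 to 0.25 (insm1a to insm1b), -0.05 to 0.17 (neurod6a to neurod6b), -0.01 to 0.25 (neurod2 to neurod4) and -0.20 to -0.09 (tbr1b to eomesa).

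The sign turned for 5 genes near 0 that were called in no setting. With a library left out their log2 fold changes ranged from -0.04 to 0.14 (neurod2), -0.13 to 0.03 (neurod4), -0.05 to 0.11 (neurod6a), -0.08 to 0.03 (neurod6b) and -0.09 to 0.02 (eomesa). As TPM neurod6b was at 0.03 and eomesa at 0.02. With median-ratio scaling neurod2 was at 0 and neurod6a at -0.04, with quantile normalization neurod2 at -0.01, neurod4 at 0.01 and neurod6a at -0.05, with cyclic loess neurod2 at -0.03 and neurod6a at -0.05, and with the length trend removed neurod6a at -0.04. The cause was not tested.

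Higher genes were 66.3% of the calls, and 75.1% as TPM, 50.5% with median-ratio scaling, 52.9% with quantile normalization, 51.5% with cyclic loess and 51.1% with the length trend removed. Same-numbered libraries had correlations of deviations of 0.03, 0.18 and -0.03, and the other combinations ranged from -0.18 to 0.17, which does not decide whether the numbers are pairs. The labels name no shared batch for a number, so the numbers were not taken as pairs. With the replicate block 455 genes and 1 of the 10 were called, elavl3 at 0.64 (adjusted p = 0.0307), and the differences of the log2 ratios were 1.01, 0.17, 0.04, 0.13 and -0.15 in the order above, which a balanced block cannot alter. The exact sign-flip p of the elavl3 to elavl4 ratio was 0.25, the smallest that 3 pairs allow.

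Calls of other genes named in the report rested on the setting as well. The genes btg2, snap25a, ccnd1, hes2.2, foxg1b and rcor2 kept their direction in 18 of 18 settings and were called in 9, 8, 14, 7, 11 and 14 of them. Depth was not established, so counting error could not be separated from the spread between pools.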
